A study of Rattus norvegicus with 4 samples.

Results

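The endothelial marker genes are 10 genes that mark the endothelium, the cell layer that lines blood vessels. They were followed in cultures of rat testicular peritubular myoid cells given testosterone and in control cultures. The genes were Vwf, Pecam1, Cdh5, Kdr, Flt1, Tek, Tie1, Esam, Eng and Emcn. All non-control probes whose gene name was one of these symbols, with or without a "predicted" or "mapped" ending, or an older symbol of one of them, were taken. All 10 genes had a probe, which makes 10 of the 35659 gene and transcript names on the array, and 15 of its 41012 non-control probes were theirs. Vwf, Cdh5, Flt1, Tek and Tie1 each had a pair of probes and the other genes a single probe. The set was chosen on the testosterone minus control differences of these same arrays, where endothelial markers had been seen to read lower. Those differences are therefore given as a description and carry no test.

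The series measured RNA from peritubular myoid cells, the contractile cells wrapped around the seminiferous tubule, on 4 one-colour Agilent arrays. The testosterone group (2 arrays) came from testes of male rats aged 40 days, whose cells were cultured for 4 days with growth factors and treated with pulses of testosterone at 1e-07 M. The control group (2 arrays) came from cells of the same age and tissue. Its labels name no vehicle and repeat the testosterone protocol word for word, so the groups rest on the sample titles and source names. Neither strain nor pooling of animals is given in the sources used here, nor whether replicates were separate cultures, so all spreads are between these arrays and may be technical.

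Endothelial cells are held together at their borders by adhesion proteins such as VE-cadherin, PECAM-1 and ESAM, and they respond to vascular endothelial growth factor (VEGF) through VEGF receptors and to angiopoietins through the Tie receptors. In the testis the vessels run through the interstitium beside the tubules that the peritubular cells enclose. Several of the genes are not restricted to endothelium. Eng is also made by mesenchymal stromal cells, Vwf by megakaryocytes, and Pecam1 by leukocytes and platelets.

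Each level is the log2 of a spot's processed signal relative to the 75th percentile of its own array (control spots left out), so 0 is that percentile. Levels of different probes are not compared. "Well above background" is the scanner software's own flag for a spot. It was set for 63.5% to 68.2% of non-control spots on the 4 arrays. Control replicate 1 stood apart, with a coefficient of variation between repeat spots, per its header, of 9.52% against 5.25% to 5.53% on the others, and its header alone asked for evaluation. It had 115 non-control spots at least 3 log2 units below all other arrays, all of them in columns 57 to 85, where 3 of the 15 endothelial probes lay (1 each of Flt1, Tek and Tie1) and none of the 6 tested. Of the other genes named here, the probes of Vegfc, Pgf, Acvrl1, Smad7, Jam2, Cldn5, Tal1, Notch1, Cd93, Adgrl4, Icam2, Rasip1, Cspg4, Kcnj8, Actg2, Ddx4, Prm1, Tnp2, Odf1 and Ldhc lay there too. The labelled cell type was checked against its markers. No probe was named Acta2 or Myh11, and Cnn1 was not well above background on any of the 4 arrays. Of 16 smooth muscle markers 11 could be tested, and 10 of these were well above background on all 4 arrays. Des read 1.68 and 2.46 with testosterone, against 1.72 and 2.15 in control. Actg2 read 1.18 and 1.39 with testosterone, against 0.17 and 1.25 in control. Tagln, another smooth muscle marker, was lower on replicate 1, at -4.63 and -2.84 with testosterone, against -4.47 and -2.75 in control. Lmod1 read -5.08 and -7.45 with testosterone, against -4.82 and -5.13 in control, and was well above background on 3 arrays.

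Endothelial transcripts were measurable in these cultures for part of the set. Probes for Vwf, Cdh5, Kdr, Esam and Eng were well above background on all 4 arrays, which is 5 of the 10 genes. The number of the 15 probes well above background was 6 on testosterone replicate 1 and 9 on testosterone replicate 2, against 7 on control replicate 1 and 8 on control replicate 2. Tek was the only gene with no probe well above background on any array. The number of endothelial cells in a dish and the RNA in each cell cannot be told apart in such bulk samples.

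**Figure D1:**
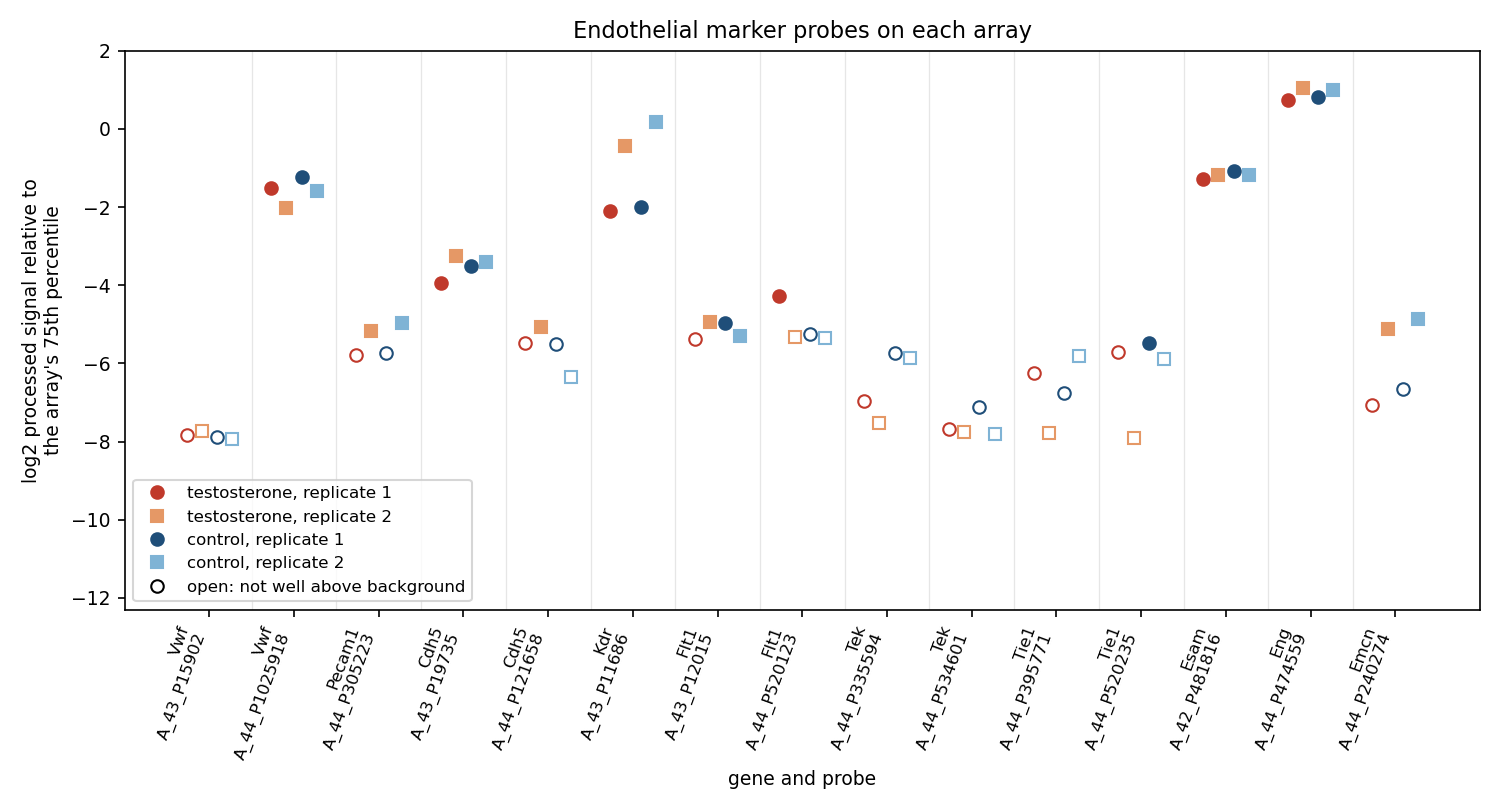
Level of each endothelial probe on each array, as log2 processed signal relative to the array's 75th percentile. Circles are replicate 1 and squares replicate 2, testosterone left of control for each probe, and open symbols were not well above background. Esam and Eng vary little between arrays. Kdr, Emcn and Pecam1 are higher on both replicate 2 arrays than on both replicate 1 arrays, as are Eng and the brighter Cdh5 probe.

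Endoglin (Eng), a co-receptor for TGF-beta family ligands, had the difference nearest 0 of the 6 genes tested. It stood at 0.73 and 1.06 with testosterone, against 0.81 and 0.99 in control. The groups overlapped. Means were 0.90 ± 0.23 with testosterone and 0.90 ± 0.13 in control (SD, n = 2 each), and the difference was -0.01 (95% interval from limma -0.59 to 0.57, as for the intervals that follow). The file lists no coordinates for this probe.

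Esam, an immunoglobulin-type adhesion protein of endothelial junctions and platelets, was at -1.28 and -1.17 with testosterone, against -1.07 and -1.18 in control. Its 4 arrays lay within a narrow band and the groups overlapped, with testosterone replicate 1 lowest. The difference was -0.10 (-0.60 to 0.40; chromosome 8, 38783957 to 38784016, rn4).

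Vwf encodes von Willebrand factor, the multimeric plasma protein that tethers platelets. Its measured probe read -1.51 and -2.01 with testosterone, against -1.23 and -1.58 in control. Testosterone replicate 2 was the lowest array and control replicate 1 the highest, and the groups overlapped because testosterone replicate 1 lay above control replicate 2. Group means were -1.76 ± 0.36 with testosterone and -1.41 ± 0.25 in control (SD, n = 2 each). The difference was -0.36 with an interval from -1.08 to 0.37. That probe is listed on chromosome 4 over 161853997 to 161854486 (rn4), a stretch of 490 bases. A second Vwf probe at 161809533 to 161809592 did not reach that flag on any of the 4 arrays, and its levels of -7.83 and -7.72 with testosterone and -7.87 and -7.93 in control carry no order. The 2 probes of Vwf thus differed in whether they detected the transcript at all, and which exons they lie in is not given in the sources used here.

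Cdh5 encodes VE-cadherin, the adhesion protein of endothelial adherens junctions. The probe well above background on all arrays read -3.94 and -3.26 with testosterone, against -3.51 and -3.41 in control (chromosome 19, 788852 to 790286, rn4). Both control arrays lay between the 2 testosterone arrays. The difference was -0.14 (-0.92 to 0.64). The second probe (chromosome 19, 779103 to 779162) was well above background on testosterone replicate 2 alone. It read -5.47 and -5.08 with testosterone, against -5.49 and -6.34 in control. With 1 measured array no fold is given.

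Pecam1 (CD31, named Pecam in the file), an adhesion protein of endothelium, leukocytes and platelets, was well above background on the replicate 2 array of each group and on neither replicate 1 array. It read -5.18 on testosterone replicate 2 and -4.98 on control replicate 2, with -5.78 and -5.74 on the replicate 1 arrays (chromosome 10, 96057717 to 96057776). Emcn, the sialomucin endomucin of venous and capillary endothelium, had the same detection. Its levels were -5.12 on testosterone replicate 2 and -4.86 on control replicate 2, and -7.08 and -6.65 on testosterone and control replicate 1 (chromosome 2, 234958254 to 234958549). With testosterone minus control at -0.20 (spot error 0.35) for Pecam1 and -0.26 (spot error 0.37) for Emcn within replicate 2, both differences were smaller than the error of the spots.

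Kdr, VEGF receptor 2 and the main signalling receptor for VEGF-A in endothelium, varied most among the genes measured on all arrays. It stood at -2.11 and -0.45 with testosterone, against -1.99 and 0.19 in control. Both replicate 2 arrays were high and both replicate 1 arrays low, so the groups overlapped. Group means were -1.28 ± 1.17 with testosterone and -0.90 ± 1.54 in control (SD, n = 2 each), and the difference was -0.38 with an interval from -2.86 to 2.11. In linear units the processed signals were 107 and 259 with testosterone, against 105 and 453 in control.

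Flt1, VEGF receptor 1, which binds VEGF with little signalling of its own, sat near the detection limit. Its first probe read -5.37 and -4.94 with testosterone, against -4.95 and -5.31 in control, and was well above background on 1 testosterone and 2 control arrays (chromosome 12, 8035639 to 8035698). The groups overlapped and the difference was -0.03 (-0.72 to 0.66). Its second probe (chromosome 12, 7924711 to 7941808), in columns 57 to 85, was well above background on testosterone replicate 1 alone. It read -4.28 and -5.32 with testosterone, against -5.25 and -5.36 in control. No fold is given for it either.

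Tek (Tie2), the receptor of the angiopoietins, and Tie1, its relative in the same receptor complex, were at or near background. The brighter Tek probe had processed signals of 3.68 ± 2.64 and 1.93 ± 1.92 on testosterone replicates 1 and 2, against 7.90 ± 2.42 and 6.81 ± 2.16 on control replicates 1 and 2, where the errors are the software's estimate for each spot. The testosterone signals were the lower ones, but none of the 4 spots was well above background, so no fold is given. The other Tek probe read between -7.80 and -7.10 on all arrays. One Tie1 probe (chromosome 5, 138950263 to 138950322) was well above background on control replicate 1 alone. It read -5.72 and -7.91 with testosterone, against -5.48 and -5.90 in control, and with 1 measured array no fold is given. The other Tie1 probe (chromosome 5, 138950960 to 138953388) carried the flag on no array, at -6.25 and -7.77 with testosterone, against -6.76 and -5.80 in control, and those levels have no order.

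Within each replicate number the testosterone array was set against the control array of the same number. The labels do not say that a number marks a shared culture or animal, so these are descriptions of 2 pairs of arrays. Errors are the software's error estimates of the 2 spots, combined, and cover a spot's measurement only. Vwf differed by -0.28 (error 0.21) in number 1 and -0.43 (error 0.21) in number 2. Kdr differed by -0.12 (error 0.21) and -0.64 (error 0.20). These were the 2 genes of the 6 tested that were lower with testosterone in both numbers, where 24.9% of all probes tested were. In number 1, Cdh5 differed by -0.43 (error 0.24), Esam by -0.21 (error 0.21), Eng by -0.08 (error 0.20) and Flt1 by -0.42 (error 0.45). In number 2 the same 4 genes differed by 0.15, 0.01, 0.06 and 0.36, with errors of 0.22, 0.20, 0.20 and 0.41. Those 4 therefore changed sign between the numbers, and the number 2 differences all lay within their spot errors.

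**Figure D2:**
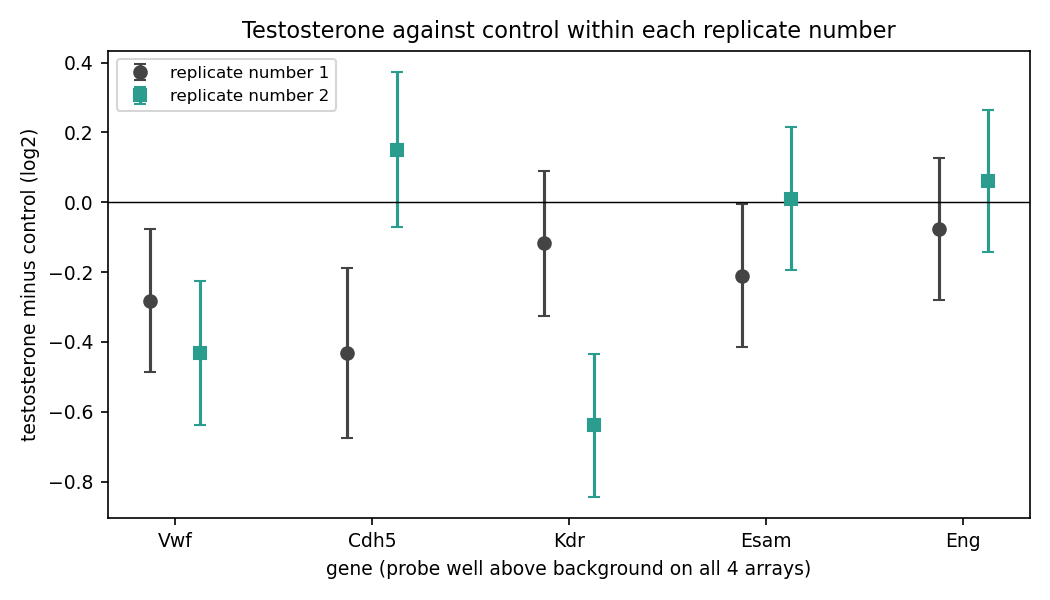
Testosterone minus control within each replicate number, in log2 units, for the 5 genes whose probe was well above background on all 4 arrays; bars are the combined spot error of the scanner software. Vwf and Kdr lie below 0 in both numbers, while Cdh5, Esam and Eng lie below 0 in number 1 and above it in number 2.

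In all, 6 of the 15 probes entered the fit over 25881 probes, 1 each for Vwf, Cdh5, Kdr, Flt1, Esam and Eng. The fit took probes that carried the flag on the full pair of arrays of either group. Limma called 0 of the 6 at an adjusted p under 0.05, and 0 of the 6 had an unadjusted p under 0.05. Over all probes it called 0 higher and 0 lower (0% each), with 208 (0.804%) at an unadjusted p under 0.05. The smallest adjusted p was 1.00. The 6 differences were all below 0, as 52.3% of all tested were, and that direction is what led to the choice of the genes. Their median was -0.12, against -0.01 over all probes tested. In number 1 their median was -0.25 with 6 of 6 below 0 (60.9% of all probes, median -0.05), and in number 2 it was 0.04 with 2 of 6 below 0 (44.7% of all probes, median 0.03). For 0 of the 6 were the groups apart, against 6.13% of all probes apart above and 8.94% apart below. The sign of the set median rested on testosterone replicate 1, without which it was 0.17. The Kdr difference was 0.45 without testosterone replicate 1, -1.21 without testosterone replicate 2, -1.47 without control replicate 1 and 0.71 without control replicate 2. For Vwf it stayed below 0 in those 4 fits, between -0.61 and -0.11.

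Kdr, Emcn and Pecam1 were higher on the replicate 2 array in both groups. Kdr was higher on replicate 2 than on replicate 1 by 1.66 with testosterone and 2.18 in control. Of all probes tested, 0.688% were at least 1.5 higher on replicate 2 in both groups. Emcn read higher on replicate 2 by 1.95 with testosterone and 1.79 in control, and Pecam1 by 0.60 and 0.76. Neither was well above background on replicate 1, so no fold is given for them. Vwf ran the other way, by -0.50 with testosterone and -0.35 in control, as 30.7% of probes did in both groups. Eng was higher on replicate 2 by 0.32 and 0.18 and Cdh5 by 0.68 and 0.10, as 41% of probes were in both groups. Esam moved by 0.11 and -0.11, and Flt1 by 0.43 and -0.35. The replicate 2 arrays lay at positions 1 and 2 of the slide and the replicate 1 arrays at positions 3 and 4, so replicate number and position cannot be told apart.

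Markers of other cells moved between the same arrays. Of 6 germ cell markers tested, 5 (Prm1, Tnp1, Tnp2, Odf1 and Ldhc) were at least 1.5 higher on replicate 2 in both groups. Tnp1, a transition protein of spermatids, read -3.42 and 1.59 with testosterone, against -2.80 and 1.59 in control. The sixth, Ddx4, ran the other way with testosterone, at -2.56 and -3.83, and stood at -7.59 and -3.96 in control. Only Tnp1 of the 6 had its probe outside columns 57 to 85. Of 9 pericyte markers, 7 were higher on replicate 2 in both groups (42.5% of all genes tested were) and 1 lower (28.7%), with median shifts of 0.84 with testosterone and 0.85 in control. Kcnj8, Higd1b and Mcam were higher by at least 1.5 in both groups, as 0.758% of all genes were, and so were the smooth muscle marker Tagln and the fibroblast marker Lum. Outside columns 57 to 85, which leaves out Kcnj8, 5 of 7 pericyte markers were higher on replicate 2 in both groups, with median shifts of 0.74 and 0.63. Macrophage and leukocyte markers went both ways, with 6 of 14 higher and 7 lower on replicate 2 in both groups. These 14 averaged 2.28 and 2.16 with testosterone, against 2.27 and 2.22 in control. The 11 of them outside columns 57 to 85 averaged 1.63 and 1.61 with testosterone, against 1.71 and 1.64 in control. Platelet markers, which bear on Vwf and Pecam1, averaged -1.02 and -0.69 with testosterone, against -0.83 and -0.59 in control, over 4 genes tested, with Ppbp not above background on any array. The 3 of them outside columns 57 to 85 averaged -0.66 and -0.47 with testosterone, against -0.46 and -0.31 in control. These averages mix Pf4, at 6.35 and 6.51 with testosterone and 6.46 and 6.67 in control, with genes that read below 0 on all arrays. The part of these cells in the endothelial values was not tested.

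**Figure D3:**
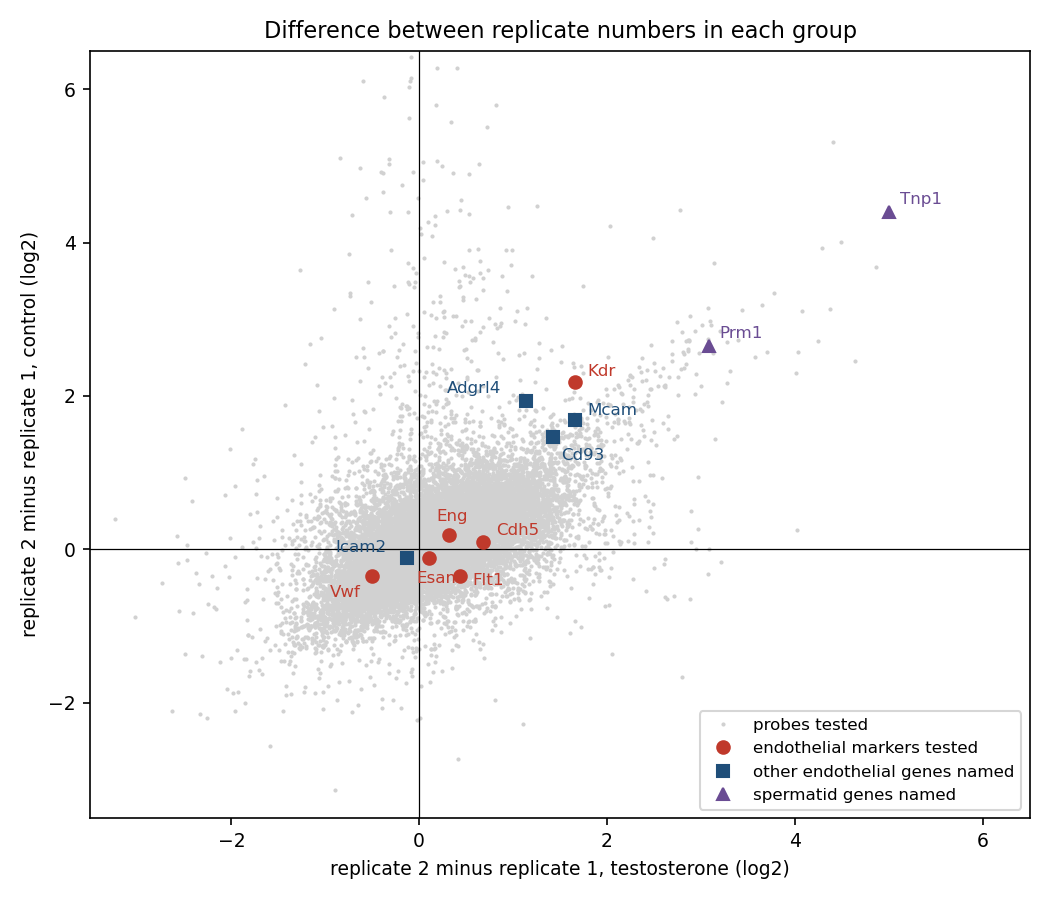
Replicate 2 minus replicate 1 in the testosterone group (horizontal, log2) and in the control group (vertical, log2). Grey points are 25856 of the 25881 probes tested, 25 lying outside the axes. Red circles are the endothelial markers tested, and purple triangles the spermatid genes Prm1 and Tnp1. Blue squares are Mcam, Cd93, Adgrl4 and Icam2, from a longer list of endothelial genes. Clec14a, Rasip1, F8 and She of that list are not marked. Of its 20 genes tested, 10 were higher and 8 lower on replicate 2 in both groups. Kdr, Mcam, Cd93 and Adgrl4 are high on both axes, and Vwf and Icam2 are below 0 on both.

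The promoters of Kdr and Emcn are shown because both genes read at least 1.5 higher on replicate 2 in both groups. Emcn was not well above background on replicate 1. The promoter of Eng is set beside them, as Eng was also higher on replicate 2 in both groups but by at most 0.32. Each promoter is the 250 bases before the transcript start from RefSeq (build GRCr8), 5′ to 3′ on the gene's strand. Capitals mark matches to an ETS-type motif (AGGAAG or CGGAAG, either strand, overlaps counted), ETS factors being widely used by endothelial genes. Kdr lies at chr14:32571813-32572062 (plus strand), Emcn at chr2:228564289-228564538 (plus strand) and Eng at chr3:36332029-36332278 (plus strand).
Kdr: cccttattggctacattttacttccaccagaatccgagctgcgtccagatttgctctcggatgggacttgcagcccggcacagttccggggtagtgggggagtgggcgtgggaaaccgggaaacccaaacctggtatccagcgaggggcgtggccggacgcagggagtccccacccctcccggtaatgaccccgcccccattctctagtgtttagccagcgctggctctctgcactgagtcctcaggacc
Emcn: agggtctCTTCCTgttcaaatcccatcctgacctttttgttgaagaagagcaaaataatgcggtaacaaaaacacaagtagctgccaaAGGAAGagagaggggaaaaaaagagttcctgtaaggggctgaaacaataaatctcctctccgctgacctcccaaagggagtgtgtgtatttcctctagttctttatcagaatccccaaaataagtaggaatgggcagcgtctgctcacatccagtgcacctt
Eng: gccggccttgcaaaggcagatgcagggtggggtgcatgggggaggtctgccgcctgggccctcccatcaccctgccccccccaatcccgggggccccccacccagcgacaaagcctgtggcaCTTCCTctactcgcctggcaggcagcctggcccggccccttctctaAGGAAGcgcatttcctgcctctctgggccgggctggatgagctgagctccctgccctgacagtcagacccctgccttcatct
The Kdr window held 0 matches, the Emcn window 2 (starting at -243 and -162 from the transcript start) and the Eng window 2 (at -128 and -82). The table held 5 of the 10 genes, and 4 of those 5 windows had a match, where 39.8% of 27457 promoters did. The androgen receptor half-site AGAACA, on either strand, was in 0 of the 5 and in 17.1% of all promoters. A GATA motif (AGATAA, either strand) was in 0 of the 5 and in 10.0% of all promoters. A match is a run of letters and not a site, and its lack says only that these letters are not in the window.

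Ligands and partners of the endothelial receptors were taken from lists with the brightest tested probe for each gene. On that basis limma called 0 of 22021 genes and unnamed transcripts higher and 0 lower (0% each), 175 (0.795%) had an unadjusted p under 0.05, and 52.1% had a difference below 0. Of the 143 list genes tested, 0 were called and 1, Tal1, had an unadjusted p under 0.05. Among VEGF ligands and co-receptors 5 of 7 differences were positive and 2 negative, with a median of 0.06. Outside columns 57 to 85 they were 2 positive and 2 negative, with a median of -0.05. Vegfa, the main ligand of Kdr, read 1.1 and 2.08 with testosterone, against 0.72 and 1.93 in control, a difference of 0.26 (-1.23 to 1.75). Like Kdr it was higher on replicate 2, by 0.98 with testosterone and 1.21 in control. Vegfc, the ligand of the lymphatic receptor Flt4, differed by 0.49 (-1.39 to 2.37). Pgf, placental growth factor and a ligand of Flt1, differed by 0.16, and the co-receptor Nrp1 by -0.12. Flt4 itself did not pass the background flag on any array.

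Both angiopoietins named here, ligands of Tek, were measured on at least 3 arrays. Angpt1, the activating ligand, read -4.70 and -3.98 with testosterone, against -5.37 and -4.13 in control, a difference of 0.41 (-0.97 to 1.80). Angpt2, named after its values were seen, read -6.08 and -3.21 with testosterone, against -5.30 and -2.58 in control, a difference of -0.70 (-4.32 to 2.91). It was higher on replicate 2 by 2.87 with testosterone and 2.72 in control, and its spot on testosterone replicate 1 was not well above background. Angptl4 differed by -0.18 (-0.67 to 0.32). Of 3 genes of this list tested, 1 was positive and 2 negative, with a median of -0.18.

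Gdf2 and Bmp10, the ligands of the endoglin and ALK1 complex, had no probe under those names. Acvrl1 (ALK1), the type I receptor that works with endoglin, read 1.62 and 2.32 with testosterone, against 1.55 and 2.12 in control, a difference of 0.14 (-0.81 to 1.09). Smad7, an inhibitor of TGF-beta signalling, differed by -0.23, Tgfbr3 by 0.26 and Tgfbr1 by -0.14. Of 9 genes of this group tested, 6 were positive and 3 negative, with a median of 0.07.

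Junction genes were split evenly, with 6 of 12 positive and a median of 0.01. Gja4, connexin 37 of arterial endothelium, differed by -0.39 (-1.89 to 1.12), Jam2 by -0.25 and Tjp1 by 0.24. Cldn5, the claudin of endothelial tight junctions, was named after its values were seen. It read -5.42 and -4.11 with testosterone, against -4.57 and -3.07 in control, a difference of -0.94 (-2.80 to 0.92), with testosterone replicate 1 not well above background.

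Transcription factors of endothelium had 6 positive and 8 negative differences among 14 tested and a median of -0.09. Tal1, a factor of blood and endothelial precursors, read -4.89 and -3.81 with testosterone, against -3.26 and -2.94 in control. Its groups did not overlap, with testosterone below control, as for 2 of the 14 and for 9.10% of all genes and unnamed transcripts. The difference was -1.25 (-2.38 to -0.12), and limma did not call it. Its probe lay in columns 57 to 85, and whether that bears on its levels was not tested. Fli1, an ETS factor, differed by -0.32 (-0.81 to 0.17), the flow-responsive factor Klf2 by -0.31 and Gata2 by 0.26. The 3 Notch genes tested, Jag1, Notch4 and Notch1, differed by -0.20, -0.11 and -0.02, and Dll4 was not well above background.

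A longer list of 42 endothelial genes, which repeats Tie1, had 20 genes tested, 7 positive and 13 negative, with a median of -0.10. Its 15 genes outside columns 57 to 85 had 6 positive and 9 negative differences and a median of -0.02, and of these 7 were higher and 7 lower on replicate 2 in both groups. Sele, Selp, Plvap, Lyve1 and Prox1 were among 11 genes of this list not well above background on any array. Mcam (CD146), also on pericytes and smooth muscle, read -4.13 and -2.47 with testosterone, against -3.52 and -1.83 in control, a difference of -0.63 (-2.83 to 1.57). Cd93 differed by -0.50, Adgrl4 by -0.50 and Icam2, an adhesion protein, by -0.44 (-0.94 to 0.07). Icam2 sat near the detection limit, at -5.36 and -5.49 with testosterone, against -4.93 and -5.05 in control. Replicate 2 exceeded replicate 1 by 1.66 and 1.69 for Mcam, 1.42 and 1.46 for Cd93 and 1.13 and 1.93 for Adgrl4, in testosterone and control arrays. Clec14a and Rasip1, named after their values were seen, exceeded it by 2.75 and 2.96 and by 1.65 and 2.05. Icam2 was lower on replicate 2, with shifts of -0.13 and -0.11. The genes F8 and She, also named after their values were seen, shifted by -0.91 and -0.59 and by -1.46 and -0.97. In both groups 10 of the 20 genes were higher on replicate 2 (42.5% of all genes) and 8 lower (28.7%), and 3 were higher by at least 1.5 (0.758%).

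Pericyte markers, which would accompany vessels, had 7 of 9 positive differences and a median of 0.08. Pdgfrb was 3.78 and 3.90 with testosterone, against 3.79 and 3.76 in control, and Rgs5 was not well above background. Cspg4 differed by 0.63 (-1.85 to 3.11). Kcnj8 had the largest difference of any list gene tested, 4.80, with an interval from -5.33 to 14.9. It read 2.26 and 4.39 with testosterone, against -6.96 and 4.02 in control, so control replicate 1 alone stood apart, at a spot in columns 57 to 85. Outside those columns 5 of 7 pericyte differences were positive, with a median of 0.07. Fibroblast markers had a median of 0.03 over 9 genes and smooth muscle markers of -0.003 over 11. Sertoli, Leydig and germ cell markers had medians of -0.08, -0.09 and -0.30 over 10, 6 and 6 genes, macrophage markers of -0.06 over 14, platelet markers of -0.15 over 4 and erythroid markers of -0.10 over 2.

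**Figure D4:**
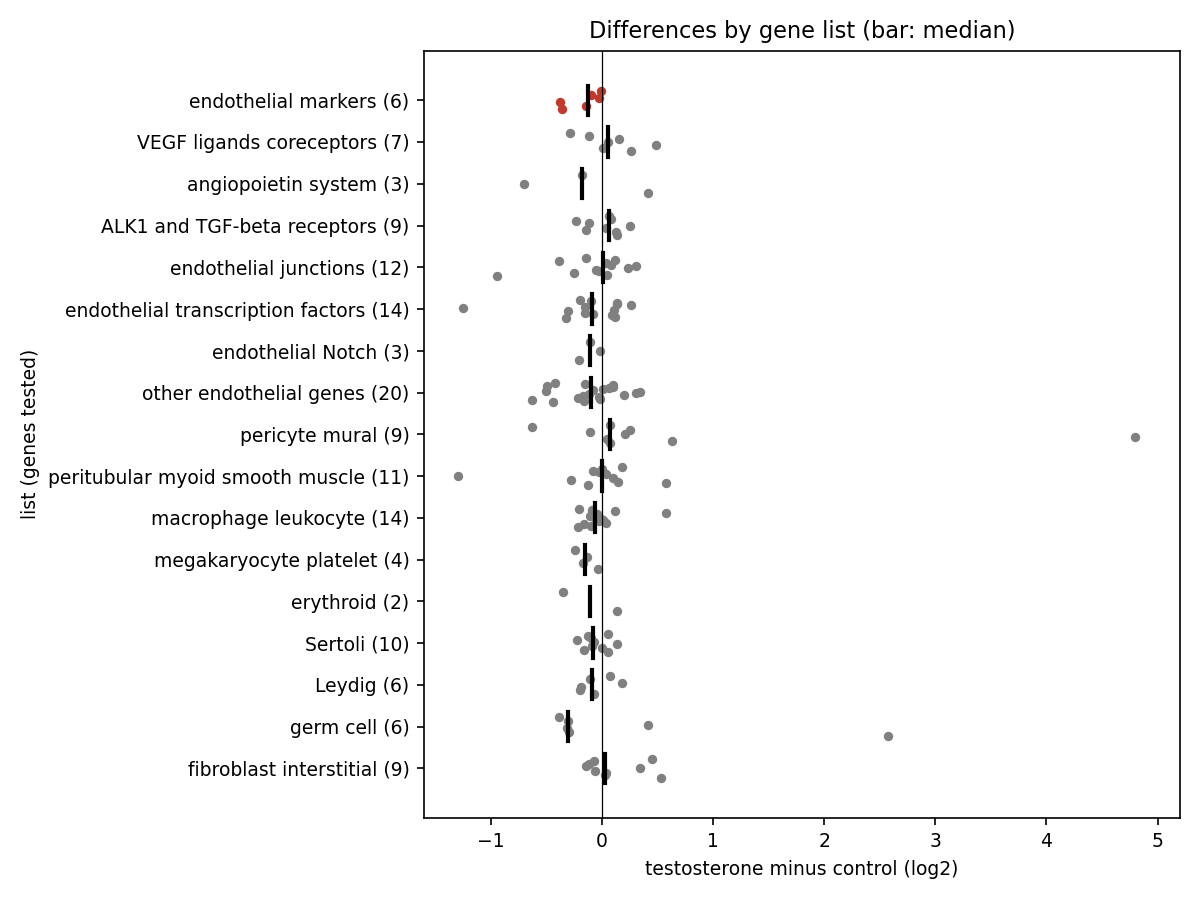
Testosterone minus control (log2) for each gene tested in the endothelial set (red) and in each other list (grey), with the number of genes tested in brackets; each point is a gene and each black bar a median. The point at 4.80 is Kcnj8. The endothelial medians lie at -0.12 for the 10-gene set and -0.10 for the longer list, within the range of the other lists.

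The genes most like the mean of the set across the 4 arrays were found from the centred mean of the 5 probes well above background on all arrays. That mean was -0.32 and 0.13 with testosterone, against -0.10 and 0.30 in control. Kdr varied most of the 5 and weighed most in it, at -2.11 and -0.45 with testosterone, against -1.99 and 0.19 in control. Vwf ran the other way between the replicate numbers, so likeness to this mean is not likeness to each member. Arhgef3, Zfp467, Spon1, Mrps28, Mypop and Pola1 had the smallest root mean square distances from it, between 0.022 and 0.029 log2 units. The median distance over 10206 candidate genes was 0.274, and 316 lay within 0.1.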

How the data were processed

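RNA was primed with oligo-dT, amplified and labelled with Cy3, per the labels' protocols. Per the file headers, Feature Extraction 11.5.1.1 wrote the deposited intensity values, with background subtracted and detrended within each array and probe positions on rn4; version 10.5 is what the submitters' processing notes give. The authors' deposited table holds log2 values and equalled the log2 processed signal minus 8.79 and 8.38 for testosterone and 8.63 and 8.55 for control replicates 1 and 2 (column medians -3.61, -3.34, -3.62 and -3.45), so its scale, centring and direction were known.

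Each value here is the log2 processed signal scaled to the 75th percentile of the non-control spots of its array, over 1 slide and 1 scan time. Outlier spots were left out when the spots of a probe were averaged, but not from that percentile. Probes were named through RefSeq (GRCr8) by accession (10835), symbol (5201) or older symbol (3477), and 21499 kept the file's name. Limma 3.58.1 in R 4.3.3 was fitted over 25881 probes with no covariate (2-sided, Benjamini-Hochberg) and tested on simulated data. The number of arrays limits the precision, and an exact test of 2 against 2 arrays cannot go below 0.333.

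Members, lists and tests were chosen with earlier results of these data known. Named genes were all members, up to 4 genes of each pathway list with the largest difference among those well above background on all arrays, and, of the first 3 measured of each cell type list, those set beside an endothelial value. Kcnj8, Higd1b, Lmod1, Lum, Tnp2, Odf1 and Ldhc were named, and lists summarised outside columns 57 to 85, after their values were seen. One junction gene that the rule names is not reported here. Alternatives changed scaling, background correction, detection filter, floor, probe choice, source table, array area, the replicate block and each array left out.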

Additional observations from a re-analysis of the deposited data

How the results depend on the processing

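Limma called 0 probes in either direction under every alternative with all 4 arrays kept: scaling to the median or to probes well above background on all arrays, normexp with quantile normalization, no detection filter, detection on all 4 arrays, a floor, the brightest probe of each gene, the authors' deposited table, columns 57 to 85 left out, and the replicate block. Leaving out 1 array gave 0 to 67 probes higher and 0 lower, all 67 without control replicate 2, where the single control array left is taken to be as variable as the testosterone arrays; the cause was not tested.

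The median difference of the endothelial probes tested was -0.12, and -0.19 to -0.03 in the 10 alternatives that kept every array, the value nearest 0 coming from normexp with quantile normalization, where 4 of 6 probes were below 0. With 1 array left out it was lowest at -0.21, without testosterone replicate 2, and highest at 0.17, without testosterone replicate 1. Vwf, Kdr, Cdh5 and Esam kept a negative difference in all 10 alternatives with every array kept. Eng changed sign in 2 of 10 and Flt1 in 1 of 9, all within 0.03 of 0 there. Only the changed scalings, normexp with quantile normalization and the authors' table altered the difference of any of these probes. The other alternatives kept each probe's difference as it was, so the kept signs there carry no weight. With no detection filter 12 of 15 probes were below 0, 9 of these 15 being probes that were not well above background on both arrays of either group. The share of all probes below 0 is not given for that setting or for normexp with quantile normalization. The 2 counts of endothelial probes there therefore stand without a background.

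With the replicate block 0 probes were called, 740 had an unadjusted p under 0.05 against 208 without it, and the median stayed at -0.12. Arrays with the same number deviated from their group means with a correlation of 0.473 over 25881 probes, but the labels do not say what the numbers share, so no pairing was assumed. Signal over background limits Tek, Tie1, Pecam1, Emcn and the second probes of Vwf, Cdh5 and Flt1.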
